A study of Homo sapiens with 4 samples.

Results

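The genes described here encode proteins of the mitochondrial ribosome, in DAOY cells, an established human medulloblastoma line. Members were all genes whose symbol begins with MRPL or MRPS and a digit, read from probe sets that the platform annotation pairs with a single symbol. This gave 74 of the 18417 genes measured, 48 with an MRPL symbol (large subunit) and 26 with an MRPS symbol (small subunit). Of these, 73 code for protein and 1, MRPS31P5, is a pseudogene of MRPS31. MRPL51, MRPS6, MRPS24 and MRPS28 share a probe set with another gene and were not analysed here. For the 3 members with several probe sets (MRPL20, MRPL36 and MRPS18B) the brightest was used.

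The study lowered ZFX, a transcription factor encoded on the X chromosome, by lentiviral short hairpin RNA (shRNA). The 3 knockdown samples differ in the hairpin (H2, H3 or H4), and the control sample carries SCR, a scrambled hairpin with no target. All 4 samples share the remaining treatment, namely exposure to virus for 16 to 24 hours, 48 hours of recovery, puromycin at 2 ug/mL, and RNA collection about 48 hours into selection. Each sample gave 1 array, so a single hairpin against SCR has no replicate check. The labels do not say that the transductions were independent, so the p-values measure only the spread between these arrays.

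Mitochondria keep their own ribosomes, which translate the few proteins encoded in mitochondrial DNA, all of them subunits of the respiratory chain and the ATP synthase. Every protein of these ribosomes is encoded in the nucleus, made in the cytosol and imported. Some members descend from proteins of the bacterial ribosome, and others exist only in mitochondria. The symbols follow an old naming scheme, so MRPS18A and MRPS30 sit in the large subunit in spite of their names.

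ZFX itself read 1430 on SCR. It read 744.9 with H2, 749.6 with H3 and 995.6 with H4, so the knockdown was weakest with H4. Median intensities of the arrays lay between 226.0 and 232.3. Of 15 neural or medulloblastoma markers, 11 were above the intensity filter, among them PTCH1, ZIC1 and OTX2, whereas NES, GLI1, MAP2 and OLIG2 were below it. The filter leaves out only the dimmest 25% of genes, so the count for these markers is near the share of all genes. Of 5 markers of blood cells, 1 (CD14) was above the filter and PTPRC read 41.9 to 43.0 on every array. H2 differed most from SCR, with 5.1% of all genes at least 1.5-fold away, against 1.31% with H3 and 2.15% with H4.

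Mitochondrial ribosomal protein genes read slightly higher on the knockdown arrays than on SCR, by an amount that differed between these arrays. With 1 array per hairpin, hairpin and array cannot be told apart, and all 3 differences share the 1 SCR array. For H2, H3 and H4 the median log2 difference (hairpin minus SCR) in the large subunit was 0.15, 0.066 and 0.007. The small subunit had 0.19, 0.067 and 0.019. Over all 18417 genes the medians were -0.02, -0.024 and -0.04, and over the brighter genes (mean log2 intensity of 8.44 or more, the upper 50% of genes) they were -0.057, -0.016 and -0.052. Both subunits therefore stood above the bulk of genes on each array, least of all with H4. Averaged over hairpins, the median was 0.064 for the large subunit (SD of the 3 hairpin medians 0.073) and 0.10 for the small subunit (SD 0.09). Each shift was about as large as the spread between hairpins. H2 carried much of it. Without H2 the medians were 0.024 and 0.051, and without H4 they were 0.108 and 0.124. The difference between the subunits was not tested. In RNA from a whole culture, more or fewer cells with a transcript and more or less transcript per cell cannot be told apart.

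**Figure D1:**
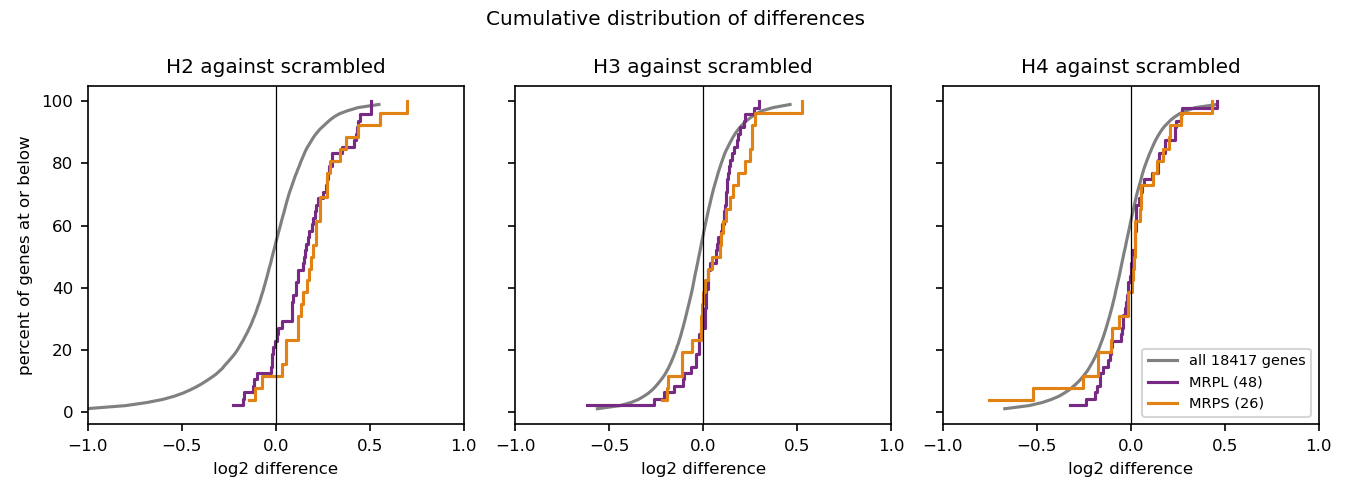
Cumulative distributions of the log2 difference between each hairpin array and the scrambled array (x axis, log2 units), as the percent of genes at or below each value (y axis), for 48 MRPL genes, 26 MRPS genes and all 18417 genes. The member curves lie farthest to the right of the grey curve with H2 (medians 0.15 and 0.19 against -0.02) and close to it with H4 (0.007 and 0.019 against -0.04).

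Counted gene by gene, 30 of the 74 members were above SCR with all 3 hairpins and 5 were below it with all 3. Over all genes the shares were 17.0% above and 31.3% below, where the members had 40.5% and 6.8%. Centring each array on its median turned the balance of all genes to 25% above and 22.9% below, and the members' counts to 38 and 2. By subunit, 17 of 48 large and 13 of 26 small subunit genes were above SCR with every hairpin, and 3 and 2 were below. The remaining 39 members lay on both sides. Without H2, 33 members were above and 13 below with both other hairpins, as were 23.0% and 41.7% of all genes. Without H3 the counts were 38 and 9 (24.5% and 40.6% of all genes), and without H4 they were 44 and 7 (27.4% and 39.3%).

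Most members were above SCR with each single hairpin. With H2, 60 members were above SCR (45.3% of all genes were), with H3 51 (42.7%) and with H4 43 (38.6%). At least 1.2-fold higher with H2 were 22 members (7.32% of all genes) and none were 1.2-fold lower (15.6%). With H3, 4 were 1.2-fold higher (4.78%) and 2 were 1.2-fold lower (7.62%), and with H4 the counts were 5 (3.86%) and 3 (10.7%). The count higher with H3 was thus near the background, and members 1.2-fold lower were few with each hairpin. With median centring they became 7 higher and 1 lower with H3, where 6.1% and 6.0% of all genes were. With H4 they became 8 and 3, where 5.5% and 8.3% of all genes were. H2 gave the highest of the 4 readings for 45 of the 74 members, against 30.0% of all genes, and exceeded H4 for 53 of them, against 55.1%.

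No member passed the test across genes. In limma's moderated test of the 3 hairpin arrays against SCR, all 74 members were above the intensity filter and 0 had an adjusted p under 0.05 (smallest 0.9998). The same held for all genes (0.0% of 13813). MRPS23 alone of the 74 had an unadjusted limma p under 0.05, as did 3.23% of all genes. The median SD over hairpins was 0.129 for members and 0.124 for the brighter genes. Exact permutation of a lone control among 4 arrays cannot give a p below 0.25. The values below are therefore levels and differences, none of which passed the test.

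**Figure D2:**
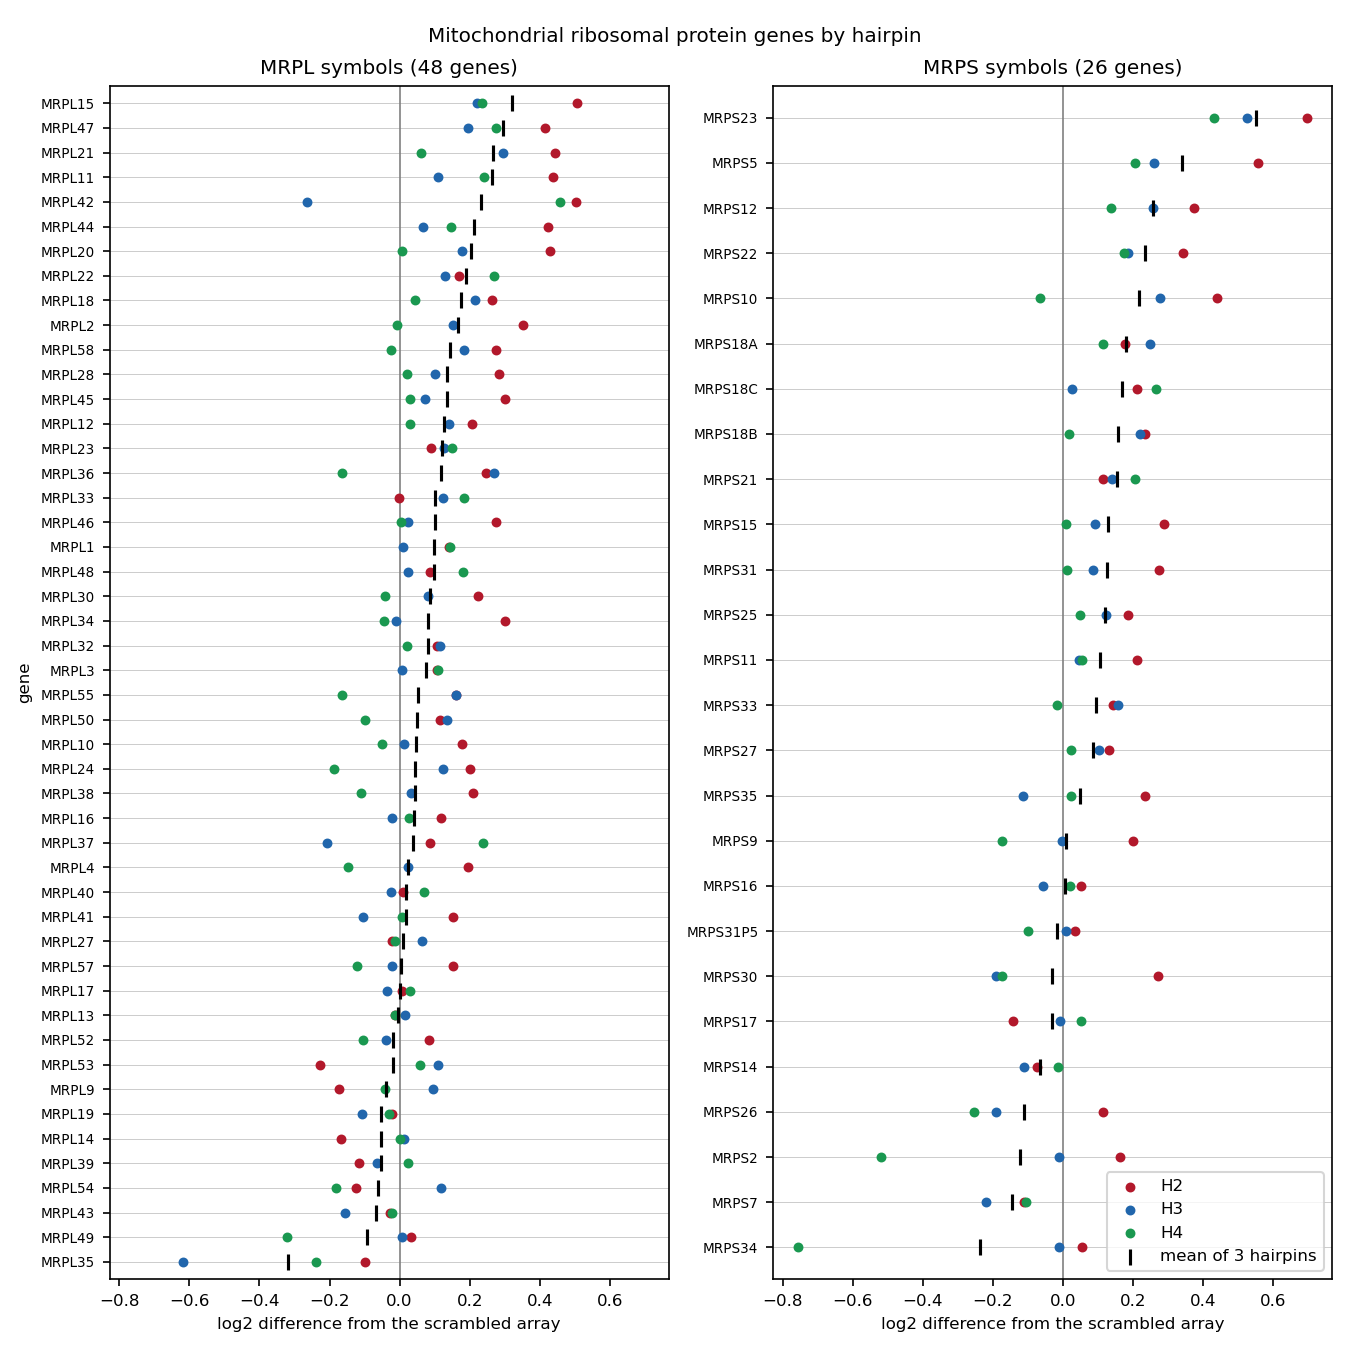
Log2 difference from the scrambled array (x axis, log2 units) of every MRPL gene (left) and MRPS gene (right), with 1 point per hairpin array and a black bar at the mean of the 3 hairpins. MRPS23 lies highest, at 0.43 to 0.70, and the widest spreads are those of MRPS34 and MRPL42.

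MRPS23 and MRPS5 stood highest in the small subunit, and MRPL47 was among the highest in the large one. MRPS22 and MRPL22 were also above SCR with every hairpin, and MRPS7 was below it with every hairpin. Stretches around the start sites of these genes are shown to let the sequence be set beside the values, together with MRPL46 and MRPS11, which start back to back. Each runs from 150 bases upstream to 30 downstream of the RefSeq start (GRCh38.p14, 5′ to 3′ on the gene's strand), taken from the first window listed for the gene. Capitals mark a motif named in the next paragraph. The positions are chr17:57850015-57850194 (minus strand) for MRPS23, chr2:95121779-95121958 (minus) for MRPS5, chr3:179604609-179604788 (minus) for MRPL47, chr3:139343844-139344023 (plus) for MRPS22, chr5:154940923-154941102 (plus) for MRPL22, chr17:75261729-75261908 (plus) for MRPS7, chr15:88467359-88467538 (minus) for MRPL46 and chr15:88467558-88467737 (plus) for MRPS11.
MRPS23: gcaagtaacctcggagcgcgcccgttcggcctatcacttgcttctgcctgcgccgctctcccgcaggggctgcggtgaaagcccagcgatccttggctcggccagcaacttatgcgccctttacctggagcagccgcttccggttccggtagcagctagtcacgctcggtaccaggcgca
MRPS5: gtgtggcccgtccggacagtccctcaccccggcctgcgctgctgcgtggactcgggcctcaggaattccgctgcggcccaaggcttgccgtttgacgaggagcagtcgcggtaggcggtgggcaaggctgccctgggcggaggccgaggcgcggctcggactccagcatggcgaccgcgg
MRPL47: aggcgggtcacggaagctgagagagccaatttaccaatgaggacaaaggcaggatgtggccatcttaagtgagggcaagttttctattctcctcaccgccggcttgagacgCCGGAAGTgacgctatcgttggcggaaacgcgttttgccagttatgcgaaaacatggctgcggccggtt
MRPS22: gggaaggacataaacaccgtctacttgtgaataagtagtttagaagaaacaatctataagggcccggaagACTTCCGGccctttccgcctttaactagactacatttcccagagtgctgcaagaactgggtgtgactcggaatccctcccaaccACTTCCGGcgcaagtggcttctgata
MRPL22: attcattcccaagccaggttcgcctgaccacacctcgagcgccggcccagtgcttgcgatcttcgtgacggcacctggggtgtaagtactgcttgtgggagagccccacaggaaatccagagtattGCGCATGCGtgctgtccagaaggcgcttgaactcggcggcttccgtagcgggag
MRPS7: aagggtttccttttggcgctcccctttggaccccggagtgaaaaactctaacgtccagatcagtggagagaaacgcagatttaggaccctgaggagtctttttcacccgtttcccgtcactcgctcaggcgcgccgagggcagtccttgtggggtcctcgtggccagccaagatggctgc
MRPL46: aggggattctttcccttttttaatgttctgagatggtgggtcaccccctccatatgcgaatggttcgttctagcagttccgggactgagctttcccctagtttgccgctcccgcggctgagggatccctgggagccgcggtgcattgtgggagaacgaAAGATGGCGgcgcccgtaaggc
MRPS11: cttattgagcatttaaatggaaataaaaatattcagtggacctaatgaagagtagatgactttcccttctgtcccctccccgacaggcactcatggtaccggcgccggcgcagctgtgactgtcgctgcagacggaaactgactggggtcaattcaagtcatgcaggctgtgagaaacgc

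Windows of 300 bases (250 before and 50 after the start) were at hand for 66 of the 74 members, 82 windows in all, and for 14239 measured genes with 20109 windows. MRPL2, MRPL10, MRPL13, MRPL15, MRPL21, MRPL23, MRPL35 and MRPS31P5 had none. Letters were searched on both strands. The ETS family motif CCGGAAGT, which GABPA reads, was in 15.9% of the members' windows and in 5.45% of all windows. The YY1 motif AAGATGGCG was in 14.6% and 2.5%. Both factors are known as regulators of nuclear genes for mitochondrial proteins. The NRF1 motif GCGCATGCG was in 3.7% of member windows and 2.4% of all, the E-box CACGTG, read by MYC, in 11.0% and 8.32%, and the ZFX motif AGGCCTAG in 2.4% and 0.92%. These are counts of letters, with several windows for some genes, and the motifs were chosen after the windows had been looked at.

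The ETS motif was in the windows of 11 members, with a median mean difference of 0.044, 5 of them above SCR with all hairpins and 0 below. The YY1 motif was in those of 12 members (median 0.11, 5 above and 0 below). Over all 74 members the median was 0.081, with 40.5% above and 6.8% below. Over all genes 17.0% were above and 31.3% below. In both motif groups the share above was thus near that of the members as a whole. Of the stretches printed, MRPL47 and MRPS22 hold the ETS motif (at 2 places in MRPS22), MRPL22 the NRF1 motif and MRPL46 the YY1 motif. Those of MRPS23, MRPS5, MRPS7 and MRPS11 hold none of the 5 motifs. The ZFX motif was in the windows of 1 member, MRPL4, which read 731.5 on SCR and 836.9, 743.1 and 660.7 with H2, H3 and H4.

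In the small subunit MRPS23, a protein with no bacterial counterpart, read 516.7 on SCR and 837.0, 743.7 and 696.5 with H2, H3 and H4. All 3 knockdown arrays were well above SCR, at 162.0%, 143.9% and 134.8% of it, a mean log2 difference of 0.55 ± 0.13 (SD, n = 3 hairpins; adjusted p = 0.9998 in limma). No other member exceeded SCR by 1.2-fold on all 3 arrays, where 0.614% of all genes did, and 0 members were 1.2-fold lower with every hairpin (2.41% of all genes). MRPS5, which lines the channel where messenger RNA enters, read 2405 on SCR and then 3537, 2879 and 2778 (mean 0.34 ± 0.19). H2 was the highest array for both genes.

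MRPS12, the counterpart of the bacterial protein at the decoding site, read 424.4 on SCR and 550.0, 507.5 and 467.0 with the hairpins (0.26 ± 0.12). MRPS22, specific to mitochondria, read 496.5 and then 629.4, 564.3 and 560.0 (0.23 ± 0.094). MRPS18A, a large subunit protein by its place, read 2908 and then 3288, 3452 and 3152 (0.18 ± 0.066). In each case SCR was the lowest of the 4 arrays, and MRPS12 and MRPS22 followed the order H2, H3, H4 while MRPS18A was highest with H3.

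MRPS18A has a pair of relatives, and all 3 derive from the bacterial protein S18. MRPS18B read 3050 on SCR and 3592, 3552 and 3088 with H2, H3 and H4. MRPS18C read 213.0 and then 246.9, 216.6 and 256.3. All 3 relatives were above SCR with every hairpin, with mean log2 differences of 0.18, 0.16 and 0.17 for MRPS18A, MRPS18B and MRPS18C. Of all members 40.5% were above with every hairpin, and of all genes 17.0%. MRPS18B with H4 and MRPS18C with H3 were barely above, at 101.2% and 101.7% of SCR.

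Below SCR with every hairpin were MRPS7 and MRPS14, both counterparts of bacterial proteins in the head of the subunit. MRPS7 read 1048 on SCR and 971.0, 899.7 and 973.4 with H2, H3 and H4 (mean log2 difference -0.15 ± 0.065). MRPS14 read 1719 and then 1634, 1591 and 1702 (-0.066 ± 0.049). Its H4 reading was at 99.0% of SCR.

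Other small subunit genes differed between hairpins more than from SCR. MRPS34, which is needed for a stable small subunit, read 1668 on SCR, 1733 with H2, 1656 with H3 and 988.4 with H4. MRPS2, a counterpart of bacterial S2, read 2556 on SCR and 2862, 2536 and 1784 in the same order. For both genes H4 stood alone at 59.2% and 69.8% of SCR while H3 lay at 99.3% and 99.2%. The mean differences of -0.24 and -0.12 turned to 0.022 and 0.076 without H4.

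MRPS10, a counterpart of bacterial S10, read 1958 on SCR and 2655, 2373 and 1872 with H2, H3 and H4. It was higher with H2 and H3 and slightly lower with H4. MRPS30, placed in the large subunit, read 1018 and then 1229, 891.9 and 902.4, so H2 was above SCR and the other hairpins below. Its mean of -0.03 turned positive under each other scaling and without H3 or H4. The pseudogene MRPS31P5 was at 102.4%, 100.7% and 93.4% of SCR, while MRPS31 read 398.5 and then 481.7, 423.3 and 402.0.

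In the large subunit MRPL15, a counterpart of a bacterial core protein, read 1530 on SCR and 2173, 1783 and 1800 with H2, H3 and H4 (mean log2 difference 0.32 ± 0.16). MRPL47, which lies by the exit of the tunnel for the growing peptide, read 4923 and then 6560, 5632 and 5951 (0.29 ± 0.11). MRPL21, another bacterial-type protein, read 2641 and then 3595, 3239 and 2755 (0.27 ± 0.19). SCR was the lowest array and H2 the highest for all 3 genes. In limma the unadjusted p was 0.051 for MRPL47 and the adjusted p 0.9998.

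MRPL11, at the base of the stalk that recruits translation factors, read 1599 on SCR and 2169, 1727 and 1889 with the hairpins (0.26 ± 0.17). MRPL44, a mitochondria-specific protein with a ribonuclease III-like fold, read 515.5 and then 691.5, 539.7 and 570.4 (0.21 ± 0.19). MRPL20, which binds ribosomal RNA, read 3046 and then 4104, 3445 and 3060 (0.21 ± 0.21). H2 was the highest array for these genes, at 135.6%, 134.1% and 134.7% of SCR, and MRPL20 with H4 was at 100.5%. A second probe set of MRPL20 held identical values on all arrays, as did the 3 of MRPS18B, so they add no independent reading.

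**Figure D3:**
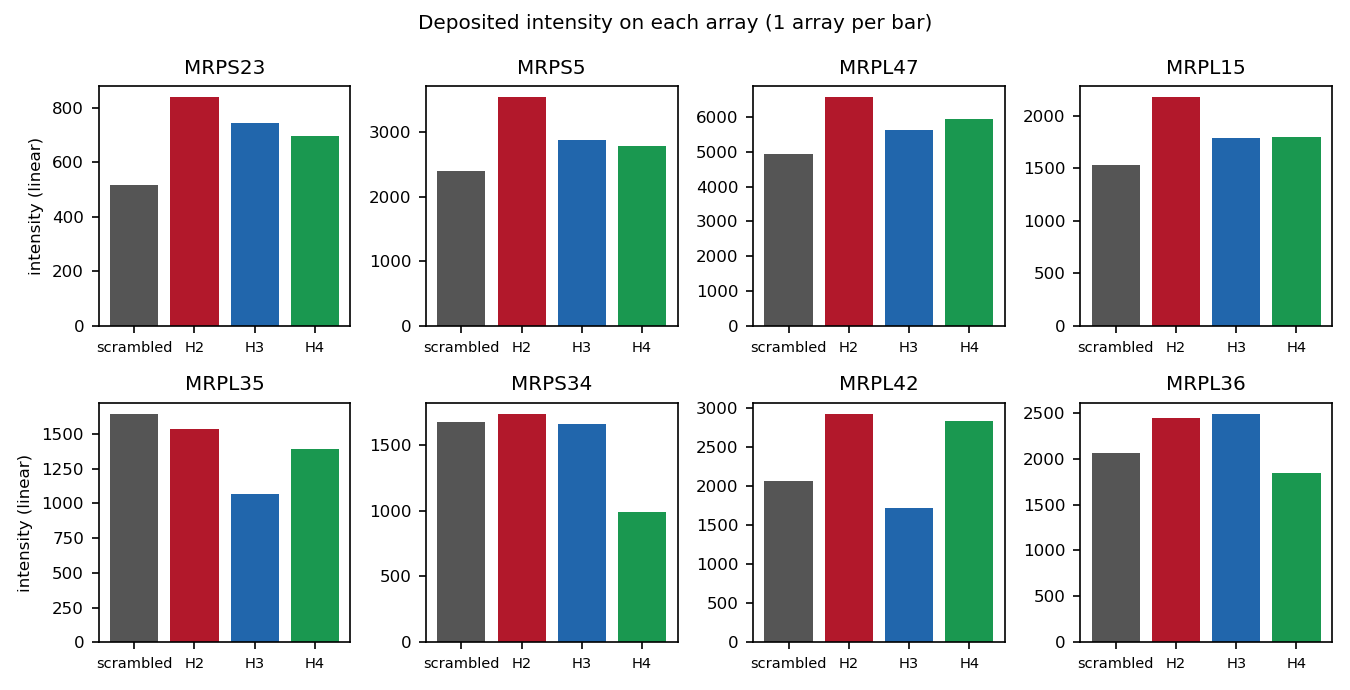
Deposited intensity (y axis, linear scale from 0) of 8 members on the scrambled, H2, H3 and H4 arrays, 1 array per bar and so no error bar. MRPS23, MRPS5, MRPL47 and MRPL15 are lowest on the scrambled array, MRPL35 is highest there, and MRPS34, MRPL42 and MRPL36 have 1 hairpin array apart from the others.

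Fewer large subunit genes were below SCR. MRPL35, a bacterial-type protein, read 1643 on SCR and 1532, 1070 and 1392 with H2, H3 and H4 (mean -0.32 ± 0.27). It was the 1 member of 74 at least 1.5-fold from SCR with H3, near the share of all genes (1.31%). The mitochondria-specific MRPL43 read 672.0 and then 659.4, 603.6 and 662.5 (-0.068 ± 0.076), and MRPL19 read 942.7 and then 928.7, 875.8 and 923.9 (-0.052 ± 0.047). For all 3 genes H3 was the lowest array.

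The mitochondria-specific genes MRPL42 and MRPL37 were low with H3 alone. MRPL42 read 2064 on SCR and 2927, 1718 and 2837 with H2, H3 and H4, the widest spread of the large subunit (SD 0.431). MRPL37 read 4854 and then 5150, 4203 and 5726, and its mean of 0.039 became -0.061 without H4. MRPL36, the counterpart of a small bacterial protein, was instead low with H4, at 2060 on SCR and 2446, 2486 and 1841. Its second probe set gave the same pattern, with 1977 and then 2388, 2337 and 1909.

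Members were also grouped by where they sit. All 7 genes listed for the exit tunnel (MRPL17, MRPL22, MRPL23, MRPL24, MRPL44, MRPL45 and MRPL47) were above SCR with H2, and 5 were above it with every hairpin (median 0.134). Over all members the shares were 81.1% and 40.5%, and over all genes 45.3% and 17.0%. The group is small and its difference from the other members was not tested. The list may not hold every protein at the exit. MRPL39, which it leaves out, was at 92.3%, 95.7% and 101.7% of SCR with H2, H3 and H4. MRPL22 read 795.0 on SCR and 893.8, 870.3 and 958.9 with the hairpins, and MRPL23 read 805.5 and then 857.4, 879.2 and 893.6. MRPL45, which holds the ribosome to the inner membrane, read 3832 and then 4718, 4033 and 3910. The first 2 were highest with H4 and MRPL45 with H2. MRPL17 read 4564 on SCR and between 4447 and 4662 with the hairpins.

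Of 5 genes of the stalks (MRPL1, MRPL10, MRPL11, MRPL12 and MRPL53), 3 were above SCR with every hairpin and 0 below. Over all members the shares were 40.5% and 6.8%, and over all genes 17.0% and 31.3%. The group is small and its difference from the other members was not tested. MRPL1, counted among those above, was at 100.7% of SCR with H3. MRPL12, the stalk protein that contacts translation factors, read 1257 on SCR and 1452, 1387 and 1282 (0.13 ± 0.091). MRPL53 read 3697 and then 3157, 3994 and 3845, with H2 the lowest array. The stalk genes thus did not share 1 pattern.

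By ancestry, 30 large subunit genes with a bacterial counterpart had a median of 0.084 and 18 mitochondria-specific ones 0.029. In the small subunit the medians were 0.105 for 13 and 0.107 for 10 genes. Of those 10 mitochondria-specific genes, all were above SCR with H2 and all read higher with H2 than with H4. Over all members the shares were 81.1% and 71.6%, and over all genes 45.3% and 55.1%. The list placed MRPS18B among the 10 in spite of its descent from bacterial S18. Without H2 the 4 medians were 0.057, 0.014, 0.05 and 0.066, in the order given.

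Some mitoribosome proteins carry other symbols, and 4 of these were measured. DAP3, a GTP-binding small subunit protein, read 2093 on SCR and 2324, 2108 and 2173 with H2, H3 and H4. GADD45GIP1 of the large subunit read 447.8 and then 536.2, 473.5 and 475.0. Both were above SCR with every hairpin. PTCD3 was at 2855 and then 3271, 2951 and 2832, and CHCHD1 at 438.4 and then 435.6, 491.9 and 496.2. The median of the 4 was 0.095, in the range of the members.

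Lists of related genes are given beside the shares of all genes above (17.0%) and below (31.3%) SCR with every hairpin, and their differences from the members were not tested. A list of 15 genes held mitochondrial translation factors and also LRPPRC, SLIRP and OXA1L, which are not such factors. Of the 15, 5 were above and 1 was below SCR with every hairpin (33.3% and 6.7%). SLIRP was among those above, and the list's median of 0.001 was the mean difference of LRPPRC. MTRF1L, a release factor, read 1812 on SCR and 2660, 1971 and 2263. MRRF, which recycles ribosomes, read 2227 and then 2924, 2868 and 2453, and MTRFR, which rescues stalled ribosomes, read 480.6 and then 401.5, 447.0 and 404.6. TUFM, the elongation factor that delivers tRNA, read 1056 and then 1332, 1160 and 1107. The first 2 and TUFM were above SCR on every array and MTRFR below. The list's median became -0.023 without H2.

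Of 27 genes for mitoribosome assembly and ribosomal RNA modification, 2 were above and 5 below with every hairpin, and the median was -0.024. METTL15, which methylates the small ribosomal RNA, read 884.5 on SCR and 1302, 1086 and 1333. The probe set annotated to METTL15 is numbered among those of genes on another chromosome. It may read a related copy, which was not tested. DDX28, an RNA helicase of large subunit assembly, read 146.1 and then 128.4, 117.6 and 112.0, and MTERF3 read 457.1 and then 377.1, 364.1 and 400.4. TFB1M, a methylase of the small ribosomal RNA, read 1321 and then 1902, 1465 and 1178, on both sides of SCR. The median turned to 0.008 with median centring and 0.019 with quantile normalization, and to 0.031 without H4, so the list has no settled direction. Without H2 it was -0.071.

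The 16 mitochondrial tRNA synthetases were divided evenly, with 4 above and 4 below on every array (median 0.021, and -0.003 without H2). CARS2, for cysteine, read 1169 on SCR and 914.3, 889.3 and 832.3, and RARS2, for arginine, read 1232 and then 1537, 1328 and 1462. WARS2 and LARS2 stood at 90.3% and 91.5% of SCR on average. As shares, 25% of the list lay on each side.

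Among 10 genes of mitochondrial DNA transcription and replication, 4 were above and 2 below (median 0.068, and 0.008 without H2). SSBP1, which coats single-stranded mitochondrial DNA, read 4288 on SCR and 5215, 5010 and 5061, nearly the same with each hairpin. TWNK, the helicase, read 398.0 and then 578.5, 432.9 and 333.4. MGME1 was at 89.5% and TFB2M at 108.6% of SCR on average.

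Of 10 nuclear regulators of mitochondrial genes, 1 was above and 3 were below with every hairpin (median 0.021, and -0.05 without H2). GABPA read 1220 on SCR and 1752, 1488 and 1149, in the order H2, H3, H4. As for METTL15, its probe set is numbered among those of another chromosome and may read a related copy, which was not tested. NRF1 read 663.3 and then 545.8, 577.7 and 577.9, and MYC read 1243 and then 1082, 1122 and 1092, both lower on all 3 arrays. PPARGC1A, a coactivator of mitochondrial biogenesis, read 169.9 and then 208.9, 161.1 and 203.3. Over the 6 lists of related genes 0 of 82 passed limma's adjusted threshold, as did 0.0% of all genes tested. An unadjusted limma p under 0.05 was found for 4 of the 82 (METTL15, DDX28, CARS2 and SSBP1) and for 3.23% of all genes tested.

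**Figure D4:**
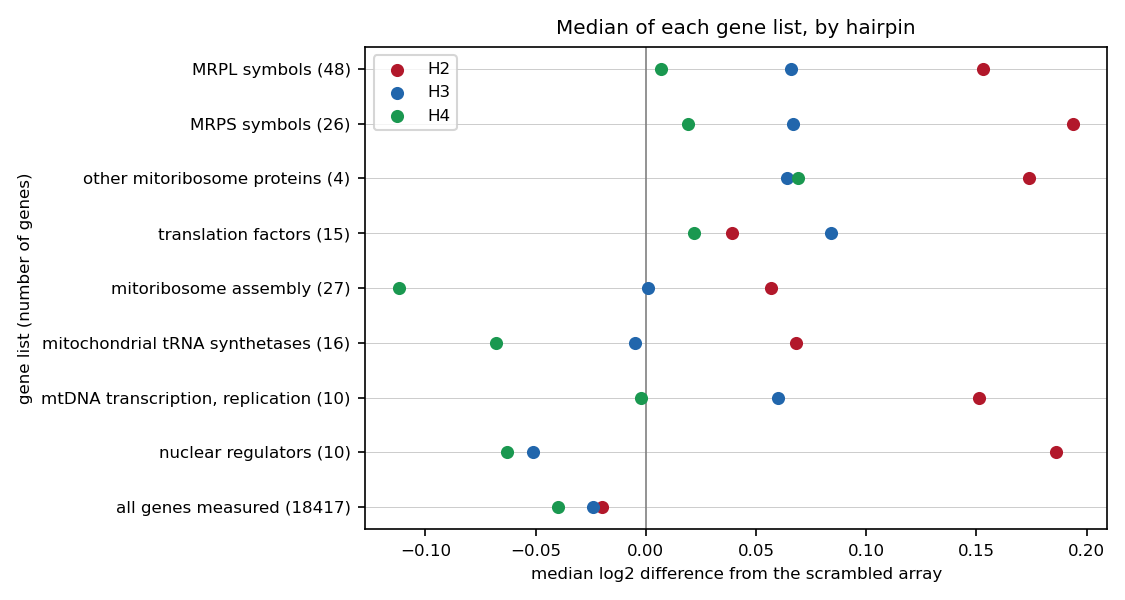
Median log2 difference from the scrambled array (x axis, log2 units) of each gene list (y axis, number of genes in brackets), 1 point per hairpin. MRPL and MRPS genes are above 0 with each hairpin, and assembly genes and tRNA synthetases run from 0.057 and 0.068 with H2 to -0.112 and -0.068 with H4.

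Many genes for mitochondrial proteins share a start region with a gene on the other strand. Of the 66 members with a window, 19 had a measured gene that starts in the opposite direction within 1000 bases upstream. The same was not counted over all genes, so this count cannot be called a trait of the members. MRPL46 and MRPS11, whose starts lie 320 bases apart, are neighbours and both members, 1 from each subunit. MRPL46 read 1197 on SCR and 1449, 1216 and 1200 with the hairpins, and MRPS11 read 2431 and then 2817, 2512 and 2526. Their mean log2 differences were 0.10 and 0.105, each mostly from H2.

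For 17 members the neighbour was not a member. Those members had a median of 0.039 and their neighbours -0.015, and the member stood higher in 11 of the 17 pairs. MRPS12 starts 181 bases from SARS2, a mitochondrial tRNA synthetase with differences of 0.079, 0.272 and -0.056, where MRPS12 had 0.374, 0.258 and 0.138. MRPS18C and HELQ, 175 bases apart, were both above SCR on every array, with means of 0.17 and 0.14. MRPL50 and ZNF189, 233 bases apart, stood at 0.051 and -0.50. MRPS2 and PIERCE1, 96 bases apart, had the widest gap of the 17 pairs, with -0.12 and 0.47. A shared start region thus went with like values in some pairs and not in others.

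**Figure D5:**
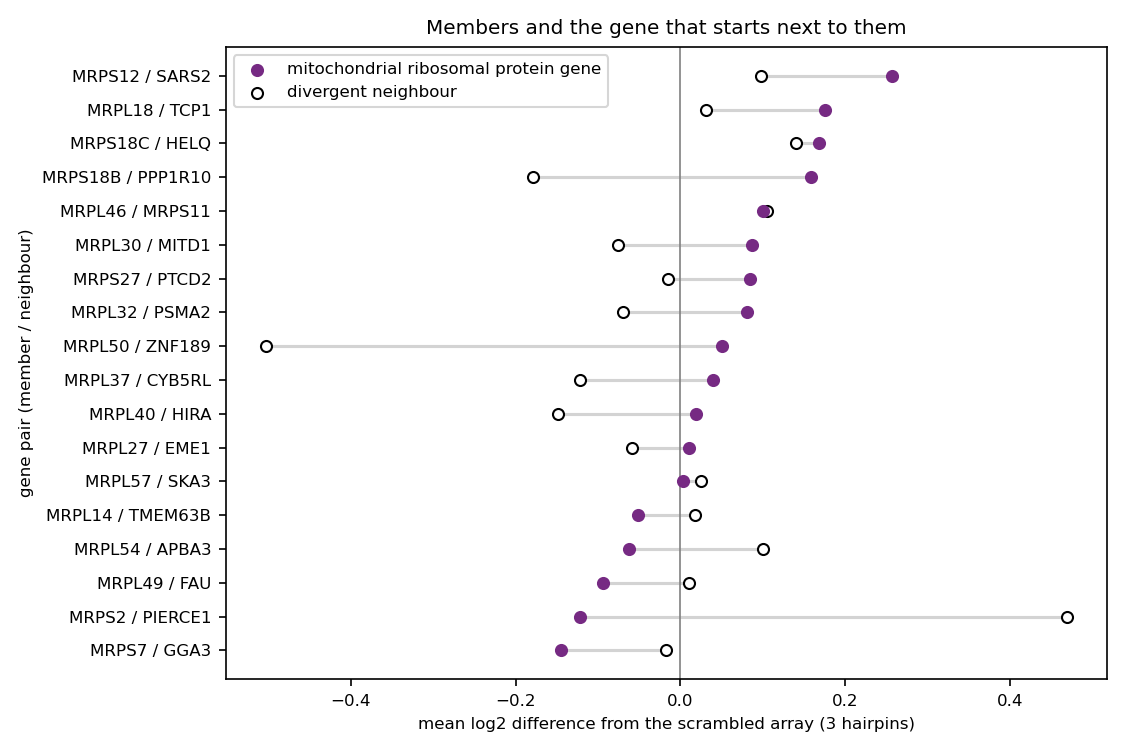
Mean log2 difference over the 3 hairpins (x axis, log2 units) of members (filled) and of the gene starting on the opposite strand within 1000 bases (open), 1 line per pair. MRPL46 and MRPS11 coincide near 0.10, and MRPS2 with PIERCE1 and MRPL50 with ZNF189 are farthest apart.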

How the data were processed

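Per the submitters' processing notes, the authors used RMA. The deposited values are intensities of probe sets on a linear scale. The version of RMA, its settings and a genome build were not given in the sources used here. RMA sets all arrays to 1 distribution, which hides a change in total RNA. Here log2 of each intensity was taken. Of 33297 probe sets, 19460 had 1 symbol, which stand for 18417 genes. The probe set with the highest mean was kept for each gene.

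Descriptions used all measured genes. The test left out the dimmest 25% of genes (mean log2 intensity under 6.78). The 3 hairpin arrays were set against SCR with limma 3.58.1 (lmFit, eBayes with trend; R 4.3.3) and Benjamini-Hochberg adjustment over 13813 genes, with 2 residual degrees of freedom. SCR is assumed to vary like the others, and errors are SDs over hairpins. Precision is limited by how few arrays there are. The test was tried on simulated data. Promoter windows and gene names came from RefSeq (GRCh38.p14). Figures used matplotlib 3.10.9.

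Named genes were the 6 large and 5 small subunit genes most above and most below SCR among those on 1 side with all hairpins, the 4 with the widest range in each subunit, MRPL12, MRPS12, MRPS18A and MRPS30, and up to 4 genes of each related list. Others named were chosen by group, place or motif after their values were seen. The members and lists were chosen with earlier results of these data known. Alternatives were other scalings, other filters, the mean of probe sets, eBayes without trend and leaving out each hairpin.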

Additional observations from a re-analysis of the deposited data

How the results depend on the processing

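No member passed limma's adjusted threshold under any of the alternatives run (0 throughout). The subunit medians stayed positive under every scaling, filter, probe set rule and left-out hairpin, and ran from 0.024 to 0.108 for the large subunit and from 0.051 to 0.132 for the small one. Members above SCR with all 3 hairpins ranged from 29 (of the 69 members among the brighter genes) to 38 with median centring. Leaving a hairpin out gave 33 to 44 above SCR with both others, where fewer arrays had to pass (23.0% to 27.4% of all genes). Members below SCR with all 3 hairpins numbered 5 (31.3% of all genes). They numbered 2 with median centring (22.9%), with quantile normalization (25.6%) and with cyclic loess (26.3%). With a hairpin left out they numbered 7 to 13, since fewer arrays had to pass (39.3% to 41.7% of all genes). The counts at 1.2-fold with H3 were 4 higher and 2 lower (4.78% and 7.62% of all genes). They became 7 and 1 with median centring (6.1% and 6.0% of all genes) and with quantile normalization (5.4% and 6.7%). With cyclic loess they were 6 and 1 (5.4% and 6.7%). With H4, 5 higher (3.86% of all genes) became 8 with median centring (5.5%). Of 25 genes named by rule, 21 kept the sign of their mean difference throughout. Most of the 25 lay on 1 side of SCR with every hairpin, so leaving a hairpin out could not change their sign. The count is thus largely set by the naming rule. Without H4, MRPL37 turned to -0.061, MRPS2 to 0.076 and MRPS34 to 0.022, and leaving out each hairpin gave -0.061 to 0.162, -0.265 to 0.076 and -0.383 to 0.022. MRPS30 turned to 0.002 with median centring, 0.016 with quantile normalization, 0.001 with cyclic loess, 0.05 without H3 and 0.041 without H4, with a range of -0.182 to 0.05 over left-out hairpins. The cause was not tested. No paired analysis was possible because the labels give the arrays no shared replicate numbers. A dim gene's differences are compressed by background, and no detection call was used here.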
